A study of Mus musculus with 15 samples.

Results

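The genes studied here are the 49 genes that the authors' table of gene expression assigns to the KEGG pathway of N-glycan biosynthesis, out of 32479 genes in that table. They were measured by RNA sequencing of mouse submandibular glands in 15 libraries, 5 per group. The control group held ICR mice, an outbred stock, with no treatment. The model group was made up of NOD/LTJ mice with no treatment, an inbred line in which immune cells infiltrate salivary tissue. The SJQYD group held NOD/LTJ mice that received SJQYD, a treatment the labels name by these letters alone. The genotype is given as WT for every group, and the labels carry no dose, duration, age or sex. In a comparison with the ICR group, strain and disease cannot be told apart. The labels do not say how the mice relate to each other, so p-values measure the spread between these libraries.

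An N-glycan is a branched sugar chain carried on asparagine residues of secreted and membrane proteins. Its precursor is built on the lipid dolichol at the membrane of the endoplasmic reticulum (ER), begun on the cytosolic face and completed in the lumen. The oligosaccharyltransferase then moves the whole chain onto newly made proteins. Glucosidases and a mannosidase of the ER trim it while the protein folds with the help of calnexin and calreticulin, and enzymes of the Golgi remove further mannose and add branches, fucose, galactose and sialic acid. Salivary gland cells send large amounts of glycoprotein through this route.

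The 49 members were ordered by these steps. There were 6 genes for dolichol phosphate and the sugars it donates, 6 for the cytosolic and 6 for the lumenal part of the lipid-linked chain, 7 subunits of the oligosaccharyltransferase, 3 genes of ER trimming, 5 Golgi mannosidases, 9 genes of N-acetylglucosamine branching and 5 for core fucose, galactose and sialic acid. Srd5a3, a reductase that makes dolichol, and Glt28d2, a glycosyltransferase gene of the family of Alg13, made up the other 2. A filter on low counts left 46 members among 18136 genes tested. The members not tested were the branching genes Mgat4c, Mgat4d and Mgat5b, with 4, 2 and 8 counts summed over all 15 libraries.

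Each difference between groups was tested with edgeR's quasi-likelihood F test, and a gene was called when its p, adjusted over all 18136 genes, was under 0.05. Levels by library are CPM, read counts per library size scaled by TMM factors, and levels of different genes are compared only in the authors' FPKM, which is per length. Total counts ran from 39510018 to 68694263 per library, and 3 counts corresponded to 0.0290 to 0.0840 CPM. A single salivary transcript, Mucl2, took 15.5% to 53.8% of the counts, and the 49 members together took 0.0702% to 0.245%. The TMM factors differed by group, with means of 0.792 in control, 1.116 in model and 1.202 in SJQYD. The members' share of counts averaged 0.0875%, 0.1003% and 0.1379% in the same order, and their summed CPM 1111, 899 and 1116. Whether the members together were lower or higher in model than in control therefore depended on the scaling. The libraries also differed in transcripts of the neighbouring glands. The summed CPM of 4 parotid markers stood highest in model 3 (132643), control 2 (41176) and SJQYD 1 (35098), and that of 5 sublingual markers ranged from 30.6 in control 3 to 39834 in control 4. In whole tissue, fewer cells of a type and less RNA per cell cannot be told apart.

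In the SJQYD group, members of the first step, of ER trimming and of the Golgi mannosidases were called against model. Dpagt1, which starts the lipid-linked chain, and the glucosidase genes Mogs and Ganab rose in SJQYD against model by about the same amount, with log2 fold changes of 0.72 ± 0.14, 0.67 ± 0.14 and 0.57 ± 0.10 (SE). Man1c1, a Golgi mannosidase gene, fell by 0.99 on the log2 scale in the same comparison and by 1.54 against control, the largest of the called changes of members. Alg1, the mannosyltransferase gene that follows early in the chain, was the only member of 46 tested to be called in model against control, where 5.07% of all genes were called, and it was lower in both NOD/LTJ groups than in ICR mice. In model against control, 33 of the 46 tested members had a log2 fold change below 0 and 13 above 0, the side on which 53.3% of all genes lay.

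The promoters of Mogs, Ganab and Man1c1 are shown because these 3 genes were called in SJQYD against model, where 2.75% of all genes were called. Each run holds the 250 bases before the RefSeq start site in GRCm38.p6, in the direction of the gene, and capitals mark the motifs TGACGTG or CCAAT on either strand (ATTGG is CCAAT on the other strand).
Mogs, chr6:83115256-83115505, plus strand: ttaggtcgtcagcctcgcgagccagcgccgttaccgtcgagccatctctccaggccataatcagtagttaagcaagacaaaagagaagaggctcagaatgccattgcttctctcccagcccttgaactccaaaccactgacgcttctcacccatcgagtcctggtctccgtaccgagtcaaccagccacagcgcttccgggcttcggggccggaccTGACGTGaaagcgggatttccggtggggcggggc
Ganab, chr19:8897807-8898056, plus strand: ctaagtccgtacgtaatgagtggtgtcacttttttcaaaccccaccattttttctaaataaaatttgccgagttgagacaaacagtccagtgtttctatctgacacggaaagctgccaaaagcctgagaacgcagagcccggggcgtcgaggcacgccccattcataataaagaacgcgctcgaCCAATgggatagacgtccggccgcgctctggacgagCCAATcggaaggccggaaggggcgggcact
Man1c1, chr4:134704291-134704540, minus strand: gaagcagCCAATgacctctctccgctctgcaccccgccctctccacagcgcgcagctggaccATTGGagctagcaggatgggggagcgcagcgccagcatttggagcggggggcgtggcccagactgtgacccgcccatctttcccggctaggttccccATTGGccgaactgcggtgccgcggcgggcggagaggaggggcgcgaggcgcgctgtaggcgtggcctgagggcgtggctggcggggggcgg
The Mogs promoter held TGACGTG, a core sequence bound by the stress factor XBP1, beginning 34 bases before the start. In all, 2.01% of 32851 mouse promoters of 300 bases in the table (250 before to 50 after the start) held it, and 2 of the 41 members with a promoter did, Mogs and Dpm2. This motif was chosen after the sequences were seen, and it shares the letters ACGTG with the ACGTGG core below. Ganab held CCAAT at 66 and at 30 bases before its start and the core ACGTGG of XBP1 and ATF6 beginning 5 bases after it. CCAAT stood in 37.4% of all promoters and ACGTGG in 8.31%. Man1c1 held CCAAT at 3 places. Man1b1, which like Dpm2 was higher in every SJQYD library than in every model library without being called, held none of the 5 motifs searched.

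RefSeq promoters were found for 41 of the 49 members. ACGTGG was present in 4 of them (Alg6, Dolk, Ganab and Srd5a3), and the E-box CACGTG, which shares the letters ACGTG with it, in 4 (Alg1, Dolk, Dpm2 and Srd5a3) against 7.15% of all promoters. CCAAT was present in 22 of 41. The full ER stress element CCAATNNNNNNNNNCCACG, held by 0.119% of all promoters, was found in Alg12 alone among the members.

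Transcript levels spanned a wide range along the pathway. By the mean of the authors' FPKM over 15 libraries, 9 members stood at 10 or more, 26 between 1 and 10 and 14 under 1. The most abundant were the oligosaccharyltransferase subunit genes Rpn1 (22.5 FPKM), Ddost (21.2) and Rpn2 (19.0) and Dpm3 (20.7), which stabilises dolichol phosphate mannose synthase. Mgat4c was the lowest, at 0.000251 FPKM. The role medians ran from 0.672 FPKM for the 5 genes of fucose, galactose and sialic acid to 11.8 for the 3 genes of ER trimming. FPKM carries no correction for library composition, and SJQYD 1, where Mucl2 took the smallest share of counts, had the highest FPKM for 37 of the 46 tested members but the highest CPM for 8.

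**Figure D1:**
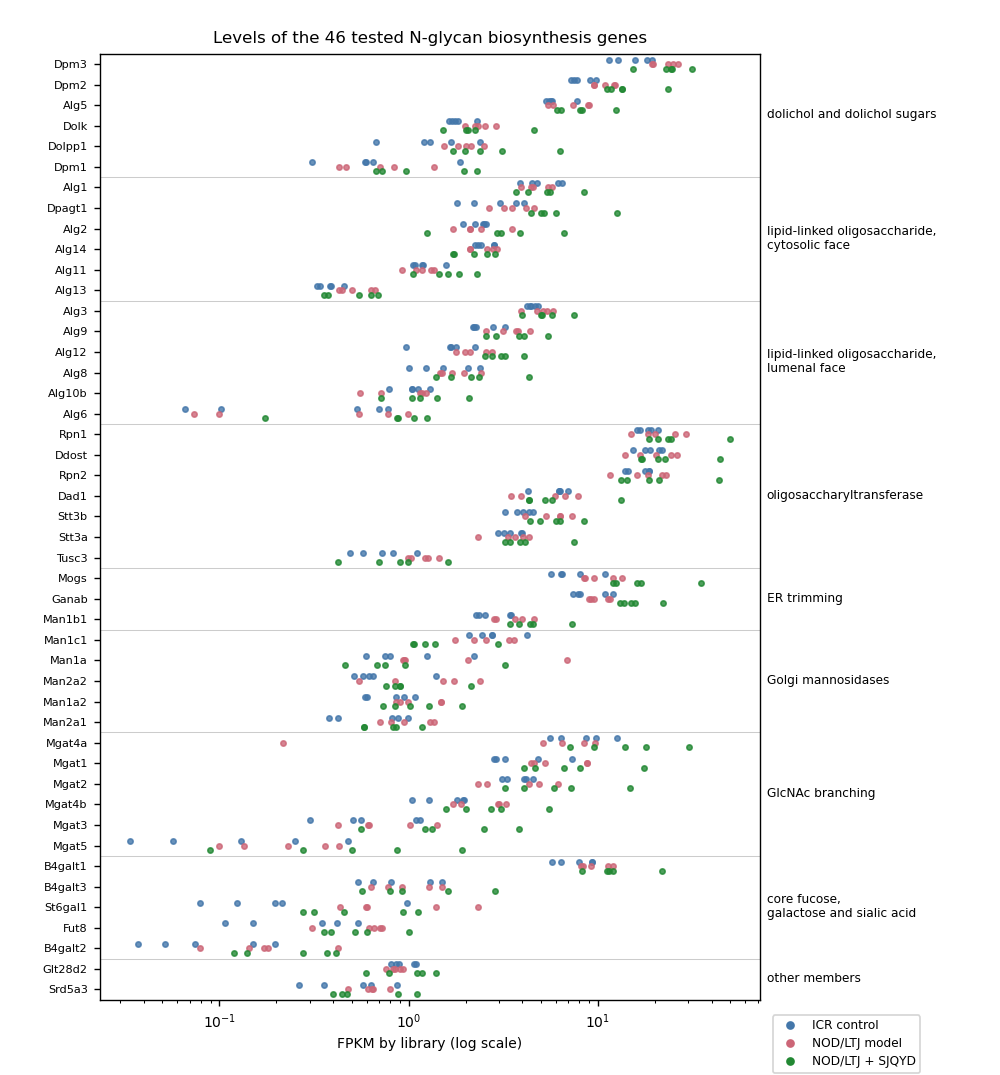
FPKM of the 46 tested members in each of the 15 libraries on a log axis, grouped by role, with blue points for ICR control, red for NOD/LTJ model and green for NOD/LTJ given SJQYD. Rpn1, Ddost, Rpn2 and Dpm3 lie furthest to the right, and Mgat4a, Alg6 and Man1a have libraries far from the rest.

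The spread between libraries also differed between members. The median coefficient of variation within a group, taken per member over the 3 groups, had a median of 19.3% over the 46 tested members and was under 20% for 23 of them. The smallest was 6.01% and the largest, for Alg6, 72.5%. Alg6, Mgat5, St6gal1, Dpm1, Man1a and B4galt2 varied most. B4galt2, at 0.364 to 1.91 CPM, shares its strand and part of its position with Ccdc24, at 0.216 to 16.5 CPM. Reads from the shared stretch could have been assigned to either gene, so the level of B4galt2 is uncertain.

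In model against control, which asks how NOD/LTJ glands differ from ICR glands, 1 of 46 tested members was called, Alg1, which was lower, where 5.07% of all genes tested were called and 2.5% were called as lower. All 5 libraries of each group were separated for 2 members, Alg1 and Glt28d2, both lower in model, against 5.77% of all genes (3.05% higher and 2.71% lower). The median log2 fold change of the members was -0.15, against 0.03 for all genes, and the members ran from -0.99 to 1.39. At an unadjusted edgeR p under 0.05 there were 12 lower and 1 higher members (26.1% and 2.17%), against 10.3% and 11.6% of all genes. On log2(FPKM + 1) the medians were 0.18 for the members and 0.28 for all genes kept in that fit, and 97.1% of the genes called there were higher, beside 50.7% with edgeR. DESeq2 called 6 members, all lower (Alg1, Alg10b, Alg11, Dad1, Ganab and Stt3a).

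Markers of the gland and of muscle also differed in this comparison. All 6 submandibular markers had log2 fold changes below 0, with a median of -0.59, and Bhlha15, a transcription factor of secretory cells, fell by 0.57 (SE 0.15, edgeR adjusted p = 0.032). The sums of the 6 ran from 424493 to 906894 CPM in control and from 222230 to 482303 in model. Nearly all of each sum was Mucl2, which was not called (edgeR adjusted p = 0.189). As a share of counts Mucl2 took 42.2% to 53.8% in control and 25.8% to 45.6% in model. Of 6 skeletal muscle markers, Ryr1, Tnnt3 and Eno3 were called as higher in each NOD/LTJ group against control, with Tnnt3 at 0 in all control libraries. The muscle sums ran from 11.2 to 22.3 CPM in control, up to 38.3 in model and up to 38.5 in SJQYD, with medians of 16.1, 25.1 and 26.8. The part of these tissues in the member results was not tested.

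In SJQYD against model, the comparison that bears on the treatment, 4 members were called, 3 higher and 1 lower, where 2.75% of all genes were called (1.91% higher and 0.838% lower). The groups did not overlap for 6 members (13.0%), with Dpm2 and Man1b1 higher in SJQYD in addition to the 4 called, where 5.5% of all genes had no overlap (3.21% higher and 2.29% lower). At an unadjusted edgeR p under 0.05 there were 10 higher and 2 lower members (21.7% and 4.35%), against 8.09% and 8.1% of all genes, and 31 of 46 members lay above 0, where 46.8% of all genes did. The median log2 fold change was 0.15 for the members and -0.03 for all genes. In limma on log2(FPKM + 1) the 4 members kept their direction and none was called (adjusted p from 0.179 to 0.316).

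In SJQYD against control, 5 members were called, 2 higher and 3 lower, a share of 10.9% beside 11.1% of all genes (5.22% higher and 5.9% lower), and 4 had no overlap (8.7%, beside 10.1% of all genes). In limma on log2(FPKM + 1), where the median of the genes kept was 0.33 and 97.6% of all calls were higher, beside 0.04 and 47.0% with edgeR, 10 members were called higher and 1 lower. The comparisons share groups, so a gene that is high or low in 1 group enters 2 of them.

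**Figure D2:**
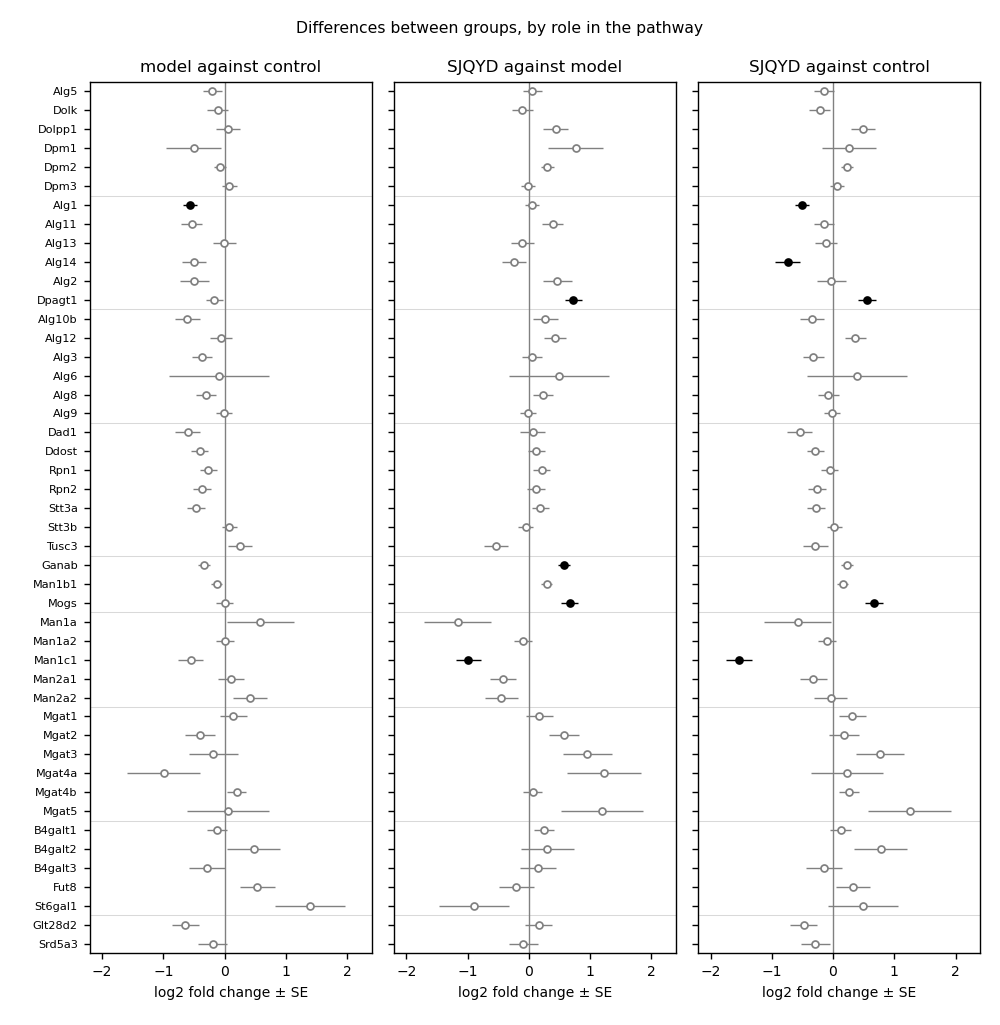
Log2 fold change with its standard error for the 46 tested members in the 3 comparisons, in the order of the pathway and with lines between the roles; filled points passed an edgeR adjusted p under 0.05. The filled points are Alg1 in model against control, Dpagt1, Ganab, Mogs and Man1c1 in SJQYD against model, and Alg1, Alg14, Dpagt1, Mogs and Man1c1 in SJQYD against control.

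None of the 6 genes for dolichol phosphate and its sugars was called by edgeR, and limma on log2(FPKM + 1) called Dolpp1, Dpm2 and Dpm3 as higher in SJQYD against control. Dolk makes dolichol phosphate, Dolpp1 recycles it, Dpm1, Dpm2 and Dpm3 form the synthase of dolichol phosphate mannose, and Alg5 makes dolichol phosphate glucose. The 6 genes had log2 fold changes from -0.51 to 0.08 in model against control and from -0.11 to 0.76 in SJQYD against model. Dpm2, a regulatory subunit, stood at 21.3, 25.2, 21.2, 23.4 and 23.5 CPM in the model libraries and at 29.6, 26.8, 26.6, 30.4 and 28.0 in the SJQYD libraries, with control at 21.2 to 29.7. Every SJQYD library was above every model library, but the log2 fold change of 0.30 ± 0.10 (SE) did not pass (edgeR adjusted p = 0.123). Alg5 was at 33.5 ± 6.72 CPM in control, 29.1 ± 7.13 in model and 30.3 ± 1.02 in SJQYD (SD, n = 5), with overlap in every comparison. Dpm3, the most abundant of the 6 per length, was at 20.9 ± 2.52, 22.1 ± 0.385 and 21.9 ± 3.94 CPM in the same order (SD, n = 5), and Dolpp1 ran from 4.28 to 8.95 in control, 6.12 to 8.12 in model and 7.04 to 13.1 in SJQYD.

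Dpm1, the catalytic subunit, varied from 3.52 CPM in control 5 to 17.6 in SJQYD 2. It shares its strand and part of its position with the predicted gene Gm20716, which was at 0 CPM in SJQYD 3, where Dpm1 was at 15.0, at 13.6 in model 2, where Dpm1 was at 10.6, and at 20.9 to 36.1 in the other 13 libraries. Dpm1 and Gm20716 summed to 15.0 CPM in SJQYD 3 and 24.2 in model 2, the lowest sums of all libraries, and to up to 42.1 elsewhere. Reads from the shared stretch could have been assigned to either gene, which was not tested, so the level of Dpm1 is uncertain.

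On the cytosolic face, Dpagt1 (GRCm38 chr9:44326019-44333900, plus strand) attaches the first sugar, N-acetylglucosamine phosphate, to dolichol phosphate. It was at 14.7, 16.2, 10.1, 16.8 and 15.6 CPM in control 1 to 5, at 14.0, 12.5, 14.0, 13.6 and 11.3 in model 1 to 5 and at 27.5, 21.0, 17.9, 19.9 and 21.7 in SJQYD 1 to 5. All 5 SJQYD libraries lay above all 10 others, while model and control overlapped. Dpagt1 rose in SJQYD by 0.72 ± 0.14 on the log2 scale (SE) against model (edgeR adjusted p = 0.00964) and by 0.55 ± 0.14 against control (edgeR adjusted p = 0.0185). Without control 2, model 3 and SJQYD 1, the libraries richest in parotid transcripts, the log2 fold changes were 0.65 and 0.48, and neither was called (edgeR adjusted p = 0.0533 and 0.0521). An antisense gene of low level, Gm48853, overlaps it at 0.0617 to 0.856 CPM.

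Alg13 and Alg14 form the enzyme that adds the next N-acetylglucosamine. Alg14 (GRCm38 chr3:121291773-121363094, plus strand), its membrane anchor, was at 11.7, 6.73, 9.26, 9.44 and 10.6 CPM in control, 5.79, 5.46, 6.89, 9.07 and 6.60 in model and 4.13, 7.26, 4.42, 7.23 and 5.49 in SJQYD. The groups overlapped, with control 2 inside the range of both NOD/LTJ groups. Alg14 fell in SJQYD against control by 0.74 on the log2 scale, with an SE of 0.20 and an edgeR adjusted p of 0.0227. This call was lost without control 1, control 5, SJQYD 1 or SJQYD 3 (log2 fold changes from -0.70 to -0.64, edgeR adjusted p up to 0.0655). It was also lost in limma on log2(FPKM + 1) and on log2(FPKM + 0.1), with limma adjusted p up to 0.458. Alg13 was level, at 3.90 ± 0.481, 3.88 ± 0.525 and 3.60 ± 0.945 CPM in control, model and SJQYD (SD, n = 5).

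Alg1 (GRCm38 chr16:5233621-5244903, plus strand) adds the first mannose. It was at 23.4, 19.1, 17.2, 23.0 and 19.2 CPM in control, at 13.0, 11.0, 15.0, 15.1 and 14.9 in model and at 14.4, 15.2, 14.5, 13.0 and 14.6 in SJQYD. The lowest control library stood above all 10 NOD/LTJ libraries, and the 2 NOD/LTJ groups overlapped. Alg1 fell by 0.56 in model (SE 0.11, edgeR adjusted p = 0.0115) and by 0.50 in SJQYD (SE 0.11, edgeR adjusted p = 0.0106) against control on the log2 scale, and it differed by 0.06 ± 0.11 between SJQYD and model. In log2(FPKM + 1) the difference of SJQYD from control was 0.05 and that of model was not called. Eef2kmt overlaps Alg1 on the opposite strand, at 9.61 to 15.3 CPM, and the labels describe stranded libraries without saying whether strand was used in counting.

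Alg2 and Alg11 add the next mannoses on the same face. Alg11 was lower in model than in control by 0.54 (log2, SE 0.17) without passing (edgeR adjusted p = 0.0703). Alg2, singled out after its values were seen, was at 9.92 to 14.6 CPM in control, 7.41 to 10.7 in model and 13.3 to 14.5 in 4 SJQYD libraries, against 4.38 in SJQYD 2. With all libraries it was not called (edgeR adjusted p = 0.237 in model against control and 0.356 in SJQYD against model), and without SJQYD 2 it was called as lower in model than control and as higher in SJQYD than model. All 6 genes of the cytosolic face had log2 fold changes below 0 in model against control, from -0.56 to -0.01, with 1 called. In SJQYD against model 4 of the 6 were above 0.

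In the lumen, Alg3, Alg9 and Alg12 add mannose and Alg6, Alg8 and Alg10b add the glucose residues that mark the finished chain. None of the 6 was called by edgeR in any comparison. DESeq2 called Alg10b as lower in model against control, and limma on log2(FPKM + 1) called Alg12 as higher in SJQYD against control. All 6 had log2 fold changes below 0 in model against control, from -0.61 for Alg10b (SE 0.20, edgeR adjusted p = 0.087) to -0.01 for Alg9. Alg9 stood at 14.6 ± 2.13, 14.5 ± 2.56 and 14.4 ± 1.24 CPM in control, model and SJQYD (SD, n = 5). Alg3 had medians of 10.7 CPM in control, 8.93 in model and 8.72 in SJQYD, with overlap in every comparison. Alg8 stood at 6.64 ± 1.23, 5.39 ± 1.03 and 6.30 ± 0.952 CPM (SD, n = 5). Alg12, which carries the ER stress element in its promoter, was at 5.83 ± 1.75, 5.58 ± 0.550 and 7.52 ± 1.21 CPM (SD, n = 5), with an unadjusted edgeR p of 0.0281 for SJQYD against model and an adjusted p of 0.233.

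Alg6, singled out after its values were seen, fell into separate levels within every group. It was at 0.936 and 1.32 CPM in control 3 and 5, 0.762 and 0.627 in model 1 and 3 and 1.96 in SJQYD 4. The other 10 libraries lay between 4.86 and 10.5 CPM. Each group held libraries of both levels, and the log2 fold changes had standard errors of 0.81 to 0.82. The span of Alg6 in the authors' table differs from the GRCm38 annotation, and the part of this in its levels was not tested.

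The oligosaccharyltransferase has a catalytic subunit, STT3A or STT3B, and shared subunits that include the products of Rpn1, Rpn2, Ddost and Dad1. STT3A works on chains as they enter the ER, and STT3B, which takes the TUSC3 or MAGT1 subunit, can act on sites missed before. None of the 7 member genes was called by edgeR in any comparison with all libraries. DESeq2 called Dad1 and Stt3a as lower in model against control, and limma on log2(FPKM + 1) called Stt3b as higher in SJQYD against control. In model against control, Stt3a, Rpn1, Rpn2, Ddost and Dad1 had log2 fold changes from -0.61 to -0.27, and Stt3b and Tusc3 had 0.08 and 0.25. Dad1 stood at 35.2 ± 7.92, 23.1 ± 6.65 and 24.1 ± 5.04 CPM in control, model and SJQYD (SD, n = 5), and Rpn1 at 123 ± 19.9, 102 ± 15.9 and 118 ± 15.0 (SD, n = 5). Ddost stood at 60.1 ± 8.38, 45.3 ± 8.69 and 49.2 ± 6.02 CPM and Rpn2 at 109 ± 11.4, 84.8 ± 15.6 and 91.6 ± 19.0 (SD, n = 5). In CPM these subunits were lowest on average in model, with edgeR adjusted p from 0.0894 to 0.264 against control. The order of the groups depended on the scaling. In the authors' FPKM, Rpn1 had means of 18.3, 21.7 and 27.5 in control, model and SJQYD. Ddost had 19.0, 20.3 and 24.3 and Rpn2 16.7, 18.2 and 22.2 FPKM, so control was lowest for these genes. Dad1 alone stayed lowest in model, at 5.59 FPKM.

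Stt3a was at 51.9, 35.7, 47.0, 46.9 and 52.3 CPM in control, 31.9, 31.0, 32.1, 47.8 and 26.0 in model and 42.9, 37.6, 35.2, 40.1 and 36.6 in SJQYD. Control 2 was the low library of its group and model 4 the high library of its own, so the groups overlapped. The log2 fold change in model against control was -0.47 (SE 0.15, edgeR adjusted p = 0.0713), and it was called when either of these libraries was left out. Stt3b was at 19.5 to 27.3 CPM in control, 21.6 to 32.9 in model and 22.8 to 26.9 in SJQYD, with log2 fold changes between -0.05 and 0.08.

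The ratio of Stt3a to Stt3b within a library does not depend on how libraries are scaled. In FPKM it was 0.924, 0.862, 0.856, 0.876 and 0.905 in control, 0.553, 0.625, 0.583, 0.685 and 0.567 in model and 0.889, 0.690, 0.618, 0.778 and 0.649 in SJQYD. Every control library lay above every model library, and SJQYD overlapped both. Means were 0.884 ± 0.0292, 0.603 ± 0.0536 and 0.725 ± 0.110 (SD, n = 5). The log2 ratio was lower in model by -0.56 (two-sided exact permutation p = 0.00794, the smallest that 5 against 5 libraries allow). Ratios of 5 pairs of related genes in 3 comparisons gave 15 tests, chosen after the levels were seen, and the adjusted p was 0.119, which did not pass. Over 15 tests, 1 ratio alone at the smallest possible p could not pass, so the adjusted p cannot decide here. For SJQYD against model the difference was 0.26 (exact permutation p = 0.0476, adjusted 0.238). A lower ratio shows unequal change of the 2 genes and not which of them moved.

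**Figure D3:**
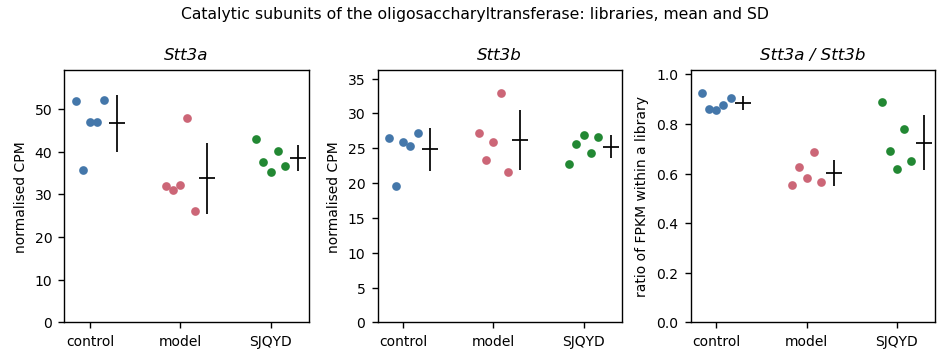
Normalised CPM of Stt3a and of Stt3b, and the ratio of their FPKM within a library, with points for the 5 libraries of each group and the mean and SD beside them. The control ratios sit between 0.856 and 0.924, above all model ratios (0.553 to 0.685), while SJQYD spreads from 0.618 to 0.889.

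The authors' pathway column leaves out some genes of the same complexes. Of 5 further subunit genes (Ost4, Ostc, Tmem258, Krtcap2 and Magt1), all 5 had log2 fold changes below 0 in model against control, and Magt1 fell by 0.79 (SE 0.21, edgeR adjusted p = 0.0445). It was at 59.2, 32.9, 102, 59.5 and 81.0 CPM in control, 39.8, 36.7, 45.7, 35.0 and 36.5 in model and 42.6, 41.3, 30.7, 41.9 and 45.9 in SJQYD. Control 2 lay below every model library and the other control libraries above them. Against control Magt1 also fell in SJQYD, by 0.73 (SE 0.21, edgeR adjusted p = 0.039).

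Of the 3 genes of ER trimming, 2 rose in SJQYD against model. Mogs (GRCm38 chr6:83115496-83118898, plus strand) encodes glucosidase I, which removes the outermost glucose. It was at 36.4, 36.5, 30.4, 31.0 and 24.5 CPM in control, 30.8, 25.1, 37.9, 30.5 and 34.4 in model and 65.0, 47.5, 49.2, 47.0 and 43.8 in SJQYD. All 5 SJQYD libraries were above all 10 others, with SJQYD 1 the highest. Mogs rose 1.59-fold by the means, a log2 fold change of 0.67 ± 0.14 (SE), against model (edgeR adjusted p = 0.0142) and against control (edgeR adjusted p = 0.00657).

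Ganab (GRCm38 chr19:8898071-8916672, plus strand) encodes the catalytic subunit of glucosidase II, which removes the remaining glucoses and so sets binding to calnexin. It was at 78.8, 76.1, 72.4, 79.1 and 63.8 CPM in control, 55.7, 52.1, 60.2, 60.6 and 65.0 in model and 77.4, 82.6, 86.4, 93.7 and 94.8 in SJQYD. Model lay lowest, below control in all but the overlap of model 5 with control 5, and SJQYD lay above model in every library. Ganab rose in SJQYD against model by 0.57 ± 0.10 (log2, SE; edgeR adjusted p = 0.00465), and its difference of model from control, -0.33 ± 0.10, was just outside the threshold (edgeR adjusted p = 0.057). Prkcsh, the other subunit of glucosidase II and not in the authors' pathway column, differed by 0.00 between SJQYD and model and by -0.31 between model and control, neither of them called.

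Man1b1, the ER mannosidase gene, was at 18.9 to 24.4 CPM in control. It was at 21.9, 20.4, 21.1, 18.9 and 19.5 CPM in model and 25.0, 24.9, 24.0, 24.4 and 26.1 in SJQYD. All SJQYD libraries lay above all model libraries, with a log2 fold change of 0.29 ± 0.09 (SE) that did not pass (edgeR adjusted p = 0.0934). The mean log2(CPM + 1) of the 3 trimming genes, set to 0 at the control mean, ran from -0.26 to 0.13 in control, -0.31 to -0.03 in model and 0.30 to 0.42 in SJQYD. Each of the 3 genes alone separated SJQYD from model, so their mean had to do so and adds no support. Prkcsh is not part of this mean.

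**Figure D4:**
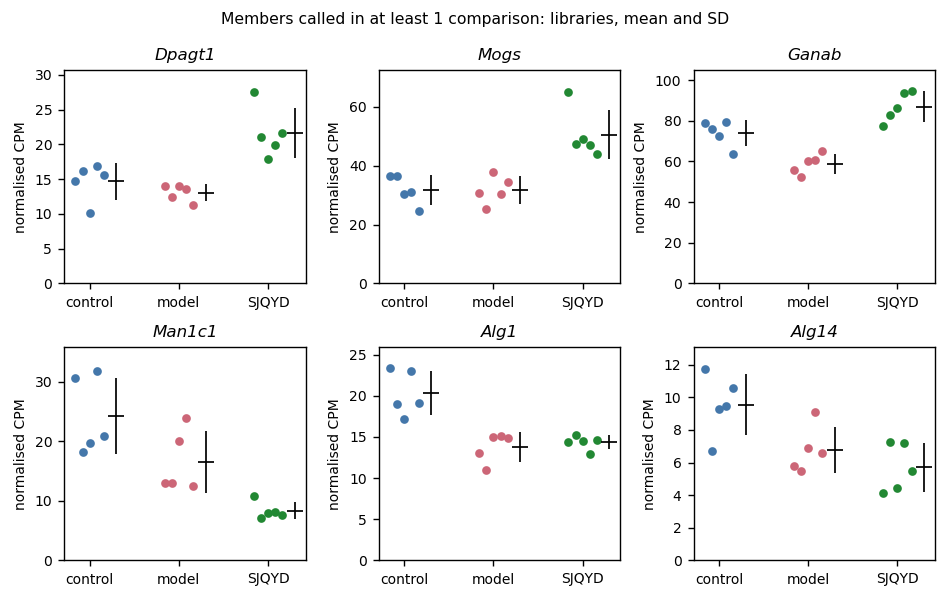
Normalised CPM by library for the 6 members called in at least 1 comparison, with the mean and SD of 5 libraries beside each group and axes from 0. SJQYD stands above both other groups for Dpagt1 and Mogs and below both for Man1c1, model is lowest for Ganab, and control is highest for Alg1.

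Among the Golgi mannosidases, Man1a, Man1a2 and Man1c1 cut the remaining mannoses that precede branching, and Man2a1 and Man2a2 remove the last 2 once branching has begun. Man1c1 (GRCm38 chr4:134561690-134704290, minus strand) was at 30.6, 18.3, 19.8, 31.9 and 20.9 CPM in control, 13.0, 13.0, 20.1, 23.9 and 12.5 in model and 10.8, 7.11, 7.95, 8.04 and 7.69 in SJQYD. All 5 SJQYD libraries lay below all others, and the model libraries reached into the control range. Man1c1 fell in SJQYD by 0.99 on the log2 scale against model (SE 0.21, edgeR adjusted p = 0.0156) and by 1.54 against control (SE 0.21, edgeR adjusted p = 0.000354). In model against control it was lower by 0.55 without passing (SE 0.21, edgeR adjusted p = 0.125).

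Man1a, singled out after its values were seen, was highest in the libraries richest in parotid transcripts. It was at 64.5 CPM in model 3, 24.6 in control 2 and 19.8 in SJQYD 1, the same 3 libraries, in the same order, as for the summed parotid markers, and at 5.83 to 17.9 CPM elsewhere. Below these the order differed: control 5, with a parotid sum of 275 CPM, held 17.9 CPM of Man1a, and model 1, with a sum of 16000, held 17.5. None of the 4 parotid markers was called in any comparison and none was at 0 in any library. Their sums ran from 87.0 to 41176 CPM in control, 206 to 132643 in model and 7.39 to 35098 in SJQYD. Man1a was called by edgeR in no comparison, and the part of parotid RNA in its level was not tested. Man1a2, Man2a1 and Man2a2 had log2 fold changes below 0 in SJQYD against model, from -0.45 to -0.10, none of them called.

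The branching genes add N-acetylglucosamine: Mgat1 and Mgat2 start the antennae on the trimmed core, Mgat4a, Mgat4b and Mgat5 add further antennae, and Mgat3 adds the bisecting residue. None was called by edgeR, although all 6 tested genes had log2 fold changes above 0 in SJQYD against model, from 0.06 for Mgat4b to 1.23 for Mgat4a. Mgat1 was at 28.4 ± 7.73, 31.3 ± 7.03 and 35.3 ± 11.1 CPM in control, model and SJQYD (SD, n = 5), with overlap throughout. Mgat2 was at 14.8 ± 0.990, 11.2 ± 4.29 and 16.8 ± 5.31 CPM (SD, n = 5).

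Mgat4a, Mgat5 and Mgat3 are described after their values were seen. Mgat4a was at 140, 145, 136, 216 and 167 CPM in control, 96.1, 68.4, 81.2, 154 and 3.51 in model and 251, 183, 234, 160 and 117 in SJQYD. Model 5 held 213 counts of it, and Mgat4a was 1 of 4 genes that lay more than 10-fold below every other library there. There were 1 to 18 such genes per library among 8669 genes with a mean of at least 5 CPM. The model mean of 80.7 ± 54.3 CPM (SD, n = 5) includes that library.

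The highest libraries of Mgat5 and Mgat4a were rich in sublingual transcripts. Mgat5 was at 12.5 CPM in SJQYD 1, 8.97 in SJQYD 3, 6.55 in control 4, 5.44 in model 4 and 5.29 in SJQYD 2, which are also the 5 libraries with the highest summed sublingual markers, and at 0.591 in control 3, where that sum was lowest. For Mgat4a the 3 highest libraries were SJQYD 1, SJQYD 3 and control 4, as for the markers. The other libraries did not follow that order, with Mgat4a at 136 CPM in control 3 and 167 in control 5 (sublingual sum 455), above the 96.1 in model 1 (sum 18391). For Mgat3 the highest were SJQYD 3 (11.8 CPM), SJQYD 1 (11.4) and model 4 (8.17). The sublingual sums ran from 30.6 to 39834 CPM in control, 3223 to 31755 in model and 81.7 to 39720 in SJQYD. None of the 4 tested markers was called, and Bpifb2, the marker not tested, was at 0 in all control and model libraries. The part of sublingual RNA in these levels was not tested.

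**Figure D5:**
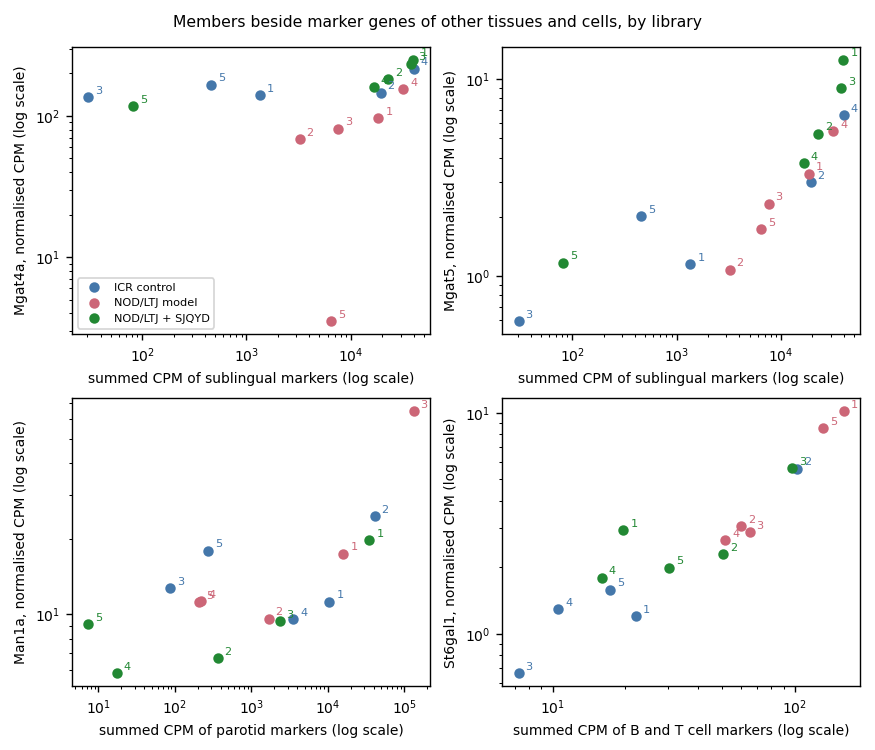
Mgat4a and Mgat5 against the summed CPM of sublingual markers, Man1a against parotid markers and St6gal1 against B and T cell markers, with log axes; each point is a library, colours give the group and digits the replicate. The libraries at the right of the Mgat5, Man1a and St6gal1 panels are also near the top, and model 5 stands alone at 3.51 CPM for Mgat4a.

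The last steps add core fucose (Fut8), galactose (B4galt1, B4galt2 and B4galt3) and sialic acid (St6gal1). None of the 5 genes was called by edgeR with all libraries, and limma on log2(FPKM + 1) called B4galt1 as higher in SJQYD against control. Fut8 was at 3.44 ± 1.65, 5.00 ± 1.14 and 4.34 ± 0.602 CPM in control, model and SJQYD (SD, n = 5), and B4galt1, the most abundant of the 5 at 10.2 FPKM, at 48.8 ± 10.8, 44.6 ± 10.5 and 53.1 ± 7.24 CPM (SD, n = 5). St6gal1 was at 1.20, 5.58, 0.665, 1.3 and 1.58 CPM in control, 10.1, 3.07, 2.89, 2.65 and 8.53 in model and 2.94, 2.30, 5.60, 1.79 and 1.99 in SJQYD.

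Model 1, model 5, SJQYD 3 and control 2 were the 4 highest libraries for St6gal1 and also for 8 summed markers of B and T cells (159, 131, 97.4 and 102 CPM). The log2 fold change of St6gal1 in model against control was 1.39 ± 0.58 (SE) and did not pass with all libraries (edgeR adjusted p = 0.175), and it was called without control 2 (2.18, edgeR adjusted p = 0.0135), without the 3 libraries richest in parotid transcripts (2.34, edgeR adjusted p = 0.0196) and in limma on log2(FPKM + 0.1) (1.58, adjusted p = 0.0465). None of the 8 markers was called. Their sums ran from 7.24 to 102 CPM in control, 51.6 to 159 in model and 15.9 to 97.4 in SJQYD, with Cd79a at 0 in control 3. The part of lymphocyte RNA in the level of St6gal1, a gene that B cells express, was not tested.

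Glt28d2 was at 4.73, 3.39, 4.98, 2.91 and 3.52 CPM in control, 2.01, 2.54, 2.51, 2.85 and 2.57 in model and 1.94, 3.90, 3.24, 2.81 and 2.08 in SJQYD. Every control library was above every model library, by a narrow margin, and the log2 fold change of -0.64 ± 0.22 (SE) did not pass (edgeR adjusted p = 0.096). It shares its strand and position with Gm37240, at 7.70 CPM in model 4 and 0 to 1.37 elsewhere, and the 2 genes summed to 10.6 CPM in model 4, the highest of all libraries, so that the groups overlapped. Reads of this gene and of Alg13, its relative, may be hard to separate. Srd5a3 had log2 fold changes from -0.29 to -0.09, none of them called.

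Beside the Mogs, Ganab and Dpagt1 results, 8 plasma cell markers summed to 147 to 241 CPM in control, 178 to 370 in model and 254 to 335 in SJQYD. Derl3 carried a large part of these sums, with means of 142, 105 and 145 CPM in control, model and SJQYD. Jchain had means of 34.6, 145 and 119 CPM. In model against control 6 of the 8 markers were above 0 and 2, Derl3 among them, below, with a median log2 fold change of 1.59. In SJQYD against model 3 were above 0, Derl3 among them, and 5 below. Plasma cells also secrete glycoproteins. None of the 8 was called in SJQYD against model, and Irf4 alone was called, as higher, in each NOD/LTJ group against control. Tnfrsf17 was at 0 in control 5 and Pou2af1 in control 3. SJQYD and model overlapped in these sums, and their part in the member results was not tested. With the parotid and sublingual sums as covariates, an alternative chosen after the data were seen, the same 4 members were called in SJQYD against model. That fit held no plasma cell or lymphocyte markers, so it does not bear on those cells.

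Genes that feed or use the pathway were read from 4 further lists. These lists were chosen with earlier results of these data known. Their counts and medians beside those of all genes are therefore description and no independent test. Of 14 genes of glycoprotein folding and recycling, 6 fell in model against control and 0 rose, with a median log2 fold change of -0.48 beside 0.03 for all genes, of which 2.5% were called as lower and 2.57% as higher. They were Mcfd2 (-1.0 ± 0.15, SE, edgeR adjusted p = 0.00168) and Lman1 (-0.79 ± 0.16), which form a cargo receptor out of the ER, Edem3 (-0.84 ± 0.13) and Os9 (-0.78 ± 0.13), which route misfolded glycoproteins to degradation, and Canx (-0.62 ± 0.16) and Pdia3 (-0.53 ± 0.13), which fold them. In SJQYD against model 4 rose and 0 fell, namely Edem3 (0.70 ± 0.13), Lman1 (0.70 ± 0.16), Pdia3 (0.49 ± 0.12) and Uggt1 (0.46 ± 0.10), the sensor that returns unfolded glycoproteins to calnexin, with a median of 0.38 beside -0.03 for all genes, of which 1.91% were called as higher and 0.838% as lower. Edem3, for example, was at 41.1, 32.8, 40.9, 48.6 and 38.1 CPM in control, 23.1, 18.1, 18.1, 28.3 and 24.9 in model and 39.0, 35.8, 36.3, 37.7 and 33.5 in SJQYD, with model below all other libraries. In SJQYD against control Mcfd2 and Os9 fell (-0.83 ± 0.15 and -0.44 ± 0.13).

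Of 22 genes that supply nucleotide sugars, 3 rose in SJQYD against model and 0 fell, beside 1.91% and 0.838% of all genes. Uap1, which makes UDP-N-acetylglucosamine, the sugar donor of the Dpagt1 enzyme, rose by 0.66 ± 0.13 (SE, edgeR adjusted p = 0.00949), and Gmppb, which makes GDP-mannose, by 0.74 ± 0.15 (SE, edgeR adjusted p = 0.0138). In model against control Galt rose (0.67 ± 0.13) and Gfpt1 fell (-0.80 ± 0.22). In SJQYD against control 4 rose, Uap1, Gmppb and Galt among them, and 2 fell, Uap1l1 (-0.87 ± 0.18) and Gne (-0.53 ± 0.16), beside 5.22% and 5.9% of all genes.

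Another list held 6 genes of the synthesis of dolichol and other prenyl chains, with the member Srd5a3, Pdss1 and Ggps1 among them. In it Nus1, a subunit of the enzyme that builds the dolichol chain, fell in model against control (-0.61 ± 0.13, SE, edgeR adjusted p = 0.0141). Nus1 rose in SJQYD against model (0.56 ± 0.13, SE, edgeR adjusted p = 0.0269). Of 9 genes of the SLC35 families of Golgi nucleotide sugar transporters, Slc35a4 fell in model (-0.37 ± 0.10, SE, edgeR adjusted p = 0.0336) and rose in SJQYD against model (0.41 ± 0.10, SE, edgeR adjusted p = 0.0256), and Slc35a5 fell in SJQYD against control (-0.62 ± 0.17). No other gene of these 2 lists was called in the 3 comparisons.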

How the data were processed

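RNA of submandibular glands was sequenced in 15 libraries, 5 in each of 3 groups, from poly(A)-selected, stranded libraries with molecular identifiers, per the labels' protocols. The authors deposited whole-number counts for 55401 genes and, for 32479 of them, FPKM values, scaled to transcript length and to the fragments of the library. The submitters' processing notes name cutadapt 1.9, HISAT2 2.0.4, StringTie 1.3.4d, UMI-tools, DESeq2 and edgeR without their roles, and the build mm9. The gene identifiers of all 49 members were found in the GRCm38 annotation, and 41 members had identical coordinates there. The coordinates are therefore given as GRCm38, with spans from the authors' table. Alg1 lay close to its annotated span without being identical, and Alg6 lay further off. Small counts pile up at 4 (14040 values, against 8483 at 3), so totals are not read as molecules, and floors cover counting error only.

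The members are the genes whose KEGG entry in the authors' table names N-glycan biosynthesis. Members and gene lists were chosen with earlier results of these data known. Counts were analysed in R 4.3.3 with edgeR 4.0.16: the default filter by group (18136 genes), TMM factors, a robust quasi-likelihood fit of all 15 libraries with 1 mean per group, and the F test with Benjamini-Hochberg adjustment over all genes, checked on simulated data. Named members were those called or without overlap in any comparison, plus Stt3a, Stt3b, Rpn1, Dpagt1, Alg5, Mgat1, Fut8, St6gal1 and the highest and lowest by FPKM; other lists give up to 4 genes of the smallest p per comparison. Members described beyond this rule were chosen after their values were seen. Promoters are from RefSeq, GRCm38.p6. Alternatives were other scaling factors and filters, DESeq2 1.42.0, limma 3.58.1 on log2(FPKM + 1) or log2(FPKM + 0.1) for all genes or for the 12436 that reached 0.5 FPKM in 5 or more libraries, the 2 groups alone, a replicate block, thresholds of 0.01 and 0.1, leaving out libraries, and marker sums as covariates. Protein sequences and 8 promoters were not used here. The single-gene values of some genes of the other lists are not reported here.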

Additional observations from a re-analysis of the deposited data

Results flagged for a closer look

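Within groups of 5 libraries, 1 library stood far from the others, by a gap of more than 0.71 of the whole range, for 9 of 75 groups checked. The check covered the named and described members and the summed CPM of all members. Some members, Man1a and Alg2 among them, were described after their values were seen, so the number cannot be set against a chance rate. SJQYD 1 was the high library of its group for Mogs (65.0 CPM), Man1c1 (10.8 CPM) and Man1a (19.8 CPM). Model 3 was high for Man1a (64.5 CPM) and model 4 for Stt3a (47.8 CPM). Control 2 was high for St6gal1 (5.58 CPM) and low for Stt3b (19.5 CPM), and held the only control counts of Mgat4c (0.0360 CPM). SJQYD 2 was low for Alg2 (4.38 CPM). The calls of Mogs and Man1c1 in SJQYD against model held without SJQYD 1.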

How the results depend on the processing

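The numbers of members called (1 in model against control, 4 in SJQYD against model and 5 in SJQYD against control) stayed within 1.5 times under other scaling factors, both other count filters, fits of 2 groups, a replicate block (1, 4 and 5) and marker covariates (1, 4 and 6). In model against control, DESeq2 called 6, limma on log2(FPKM + 1) 0 with or without the filter and on log2(FPKM + 0.1) 1, St6gal1 in place of Alg1, a threshold of 0.01 called 0 and 0.1 called 8, and without the 3 libraries rich in parotid transcripts there were 6. Leaving out 1 library gave 1 to 5, with 5 without control 2, 4 without model 4 and 2 without control 5 or SJQYD 2; the cause was not tested. In SJQYD against model, the FPKM fits called 0, 0.01 left 2, and leaving out 1 library gave 4 to 5, the same 4 members each time. In SJQYD against control, log2(FPKM + 1) and log2(FPKM + 0.1) each called 11 (10 higher), 0.01 left 2, and leaving out 1 library gave 4 to 6. The filtered log2(FPKM + 1) fit had all-gene medians of 0.28 and 0.33 in the comparisons with control (0.04 and 0.05 unfiltered), and the FPKM fits reversed Alg1 in SJQYD against control (0.0491 with pseudocount 1, filtered or not, and 0.0537 with 0.1). No pairing by replicate number was seen: same-number correlations ran from -0.339 to 0.294, and 2 of 10 libraries per comparison were closest to their own number. With so few libraries this check cannot show that there was no pairing. Of 945 pairs of a setting and an uncalled member value (35 values), 61 changed sign (38 with FPKM) and 21 became called. Members near 3 counts, such as Mgat4d, could not be compared at this depth.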
